A study of Mus musculus with 10 samples.

Results

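Epididymal white adipose tissue (eWAT) of 10 mice was divided by the level of *Cfd* mRNA. *Cfd* encodes adipsin (complement factor D), a serine protease that adipocytes secrete in large amounts. The members of each side were chosen by 1 measured value, the log10 ratio of mouse over pool that the scanner software gave for the *Cfd* probe. The 4 mice below -0.6 are called Cfd-low (mice 4, 5, 6 and 7) and the other 6 Cfd-high (mice 1, 2, 3, 8, 9 and 10). *Cfd* itself was left out of every comparison.

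All 10 mice belong to 1 labelled group, so the 2 sides differ in no known treatment, genotype or diet. They were wildtype males of C57BL/6JOlaHsd (the strain field reads C57BL/6J), aged 9 weeks at the start. They received a low fat diet for 3 weeks and then the BIOCLAIMS high fat diet for 12 weeks, at 29°C throughout. They were then injected daily for 5 days with Desferrioxamine (DFO), an iron chelator, at 100 mg/kg, and the fat pad was taken on the following day after 2 h without food. No mice without DFO were analysed here. RNA of each mouse was labelled with Cy5 and hybridised to 1 two-colour array against a Cy3 pool, which by the labels holds RNA of all mice of the wider study, the controls among them. A value below is a log2 ratio of mouse over pool unless another scale is named, and a difference is the mean of the Cfd-low mice minus that of the Cfd-high mice.

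White adipocytes store triglyceride in a single large droplet coated with perilipins, take up glucose through GLUT4, and release hormones such as adiponectin, leptin, resistin and adipsin. In the obese mouse the epididymal depot is the fat pad in which dying adipocytes are most often found, ringed by macrophages that take up their lipid. These lipid-associated macrophages express Trem2, Cd9, Gpnmb and lysosomal enzymes, and differ from the macrophages that reside along vessels in lean fat, which carry Lyve1, Cd163 and lectins of the Cd209 family. In bulk RNA fewer cells of a type and less RNA per cell cannot be told apart.

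The array carries DNA probes of 60 bases. The first 30 bases of the probes that chose or mark the groups are shown, so that the measured stretch can be found. The coordinates of these 30 bases are those of the array annotation, on mouse build mm9. The *Cfd* stretch lies at chr10:79355302-79355331 (+), *Car3* at chr3:14871781-14871810 (+), *Cyp2e1* at chr7:147960628-147960657 (+), *Rnf128* at chrX:136206790-136206819 (+) and *Lyz2* at chr10:116719205-116719234 (-). No annotation of that build was used here, so exon, intron and UTR are not stated.
*Cfd*: aacatcacaaatggtaacatgacatcctga
*Car3*: acatgcaaccgcagtgccttttgacatgat
*Cyp2e1*: ttcctcgttcatgagacctgctgcccatca
*Rnf128*: tttagcttgggctctgtgtgtcggggtttg
*Lyz2*: aacgttgtgagtttgccagaactctgaaaa

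The value that chose the groups was -1.390, -1.237, -1.0005 and -1.406 on the log10 scale in mice 4, 5, 6 and 7. In mice 1, 2, 3, 8, 9 and 10 it was 0.053, -0.223, -0.041, 0.243, 0.340 and 0.435. The mouse just inside the limit was mouse 6 and the one just outside was mouse 2, with a gap of 0.777 between them. The same 4 mice lay below the largest gap after loess normalization, where that gap was 2.66 on the log2 scale, and in the deposited values, where it was 2.32. These are other scalings of the same probe on the same arrays, so they describe the split and are no support for it. *Cfd* was well above background in all 10 mice.

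Because the groups were set by a value of the same arrays, any gene that varies along with *Cfd* separates them. All gene values are therefore descriptions of these 10 mice and none was tested. Measures of the array as a whole were not used by the rule and were tested with an exact two-sided permutation test (4 against 6 arrays, smallest possible p = 0.0048). None of the 6 measures passed, with p between 0.367 and 1.0 (0.823 to 1.0 after Benjamini-Hochberg adjustment over the 6). The median net Cy5 signal was 25.8 to 37.5 units of brightness in the Cfd-low and 20.4 to 41.7 in the Cfd-high arrays. Of 5 slides with 2 arrays each, 2 held 1 mouse of each group (mice 4 and 3, and mice 7 and 8). The remaining slides held mice of 1 group only, so over those slides the slide and the group cannot be told apart.

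In some genes of other tissues or cells mice 2 and 8, both Cfd-high, stood apart. Mouse 2 had the highest mean over the 6 detected epididymis and sperm genes (-0.62, against -1.73 to -1.30 in the other mice), and high *Krt8* and *Myh11*. None of these 6 genes was called. They were *Lcn12*, *Prm1*, *Prm2*, *Tnp1*, *Tnp2* and *Tssk6*, and the defining epididymal markers *Lcn5*, *Lcn8* and *Crisp1* did not pass the filter. The sperm genes *Prm1* (-1.37) and *Prm2* (-0.79) were highest in mouse 2. *Lcn12* was not, at -0.09 in mouse 2 and 0.40 in mouse 3, where it was highest. The part of neighbouring tissue in the values of mouse 2 was not tested. Mouse 8 had the highest *S100a9*, a neutrophil protein, at 2.25 against -1.96 to -0.40 in the other 9 mice. The rest of the neutrophil list did not all follow, since *S100a8* was 0.08 in mouse 8 and highest in mouse 2 (0.90), and *Ly6g* was 0.27 in mouse 8 and highest in mouse 1 (0.41). The mean of the 11 neutrophil genes was 0.25 in mouse 8 and -0.37 to 0.06 in the others. Without mice 2 and 8, an alternative chosen after the data were seen, 1694 genes were higher and 2455 lower, and 3719 of the 3818 calls given below were also made.

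*Car3*, the carbonic anhydrase III that makes up much of the soluble protein of fat cells, was -3.88, -3.31, -2.77 and -3.84 in mice 4, 5, 6 and 7. In the Cfd-high mice it ran from -0.34 through a median of 0.55 to 1.42. *Cyp2e1*, a cytochrome P450 that oxidises ethanol, acetone and fatty acids, was -3.68, -3.24, -3.06 and -3.52 in the 4 mice and ran from -0.31 through 0.39 to 1.42 in the others. Both genes left a wide gap between the groups, with differences of -4.09 (17.0-fold) and -3.86 (14.5-fold). *Rnf128*, a ubiquitin ligase also called GRAIL, went the other way at 1.80, 1.33, 0.82 and 1.53, against -3.59 through -2.35 to -0.77 (difference 3.76, 13.5-fold). *Lyz2*, the lysozyme of macrophages and neutrophils, was 1.06, 0.75, 0.58 and 0.99, against -0.92 through -0.53 to -0.14 (difference 1.38, 2.61-fold). In all 4 genes mouse 6 was the Cfd-low mouse nearest to the Cfd-high group. Mouse 2 was the nearest Cfd-high mouse for *Car3*, *Rnf128* and *Lyz2*, and mouse 3 for *Cyp2e1*.

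**Figure D1:**
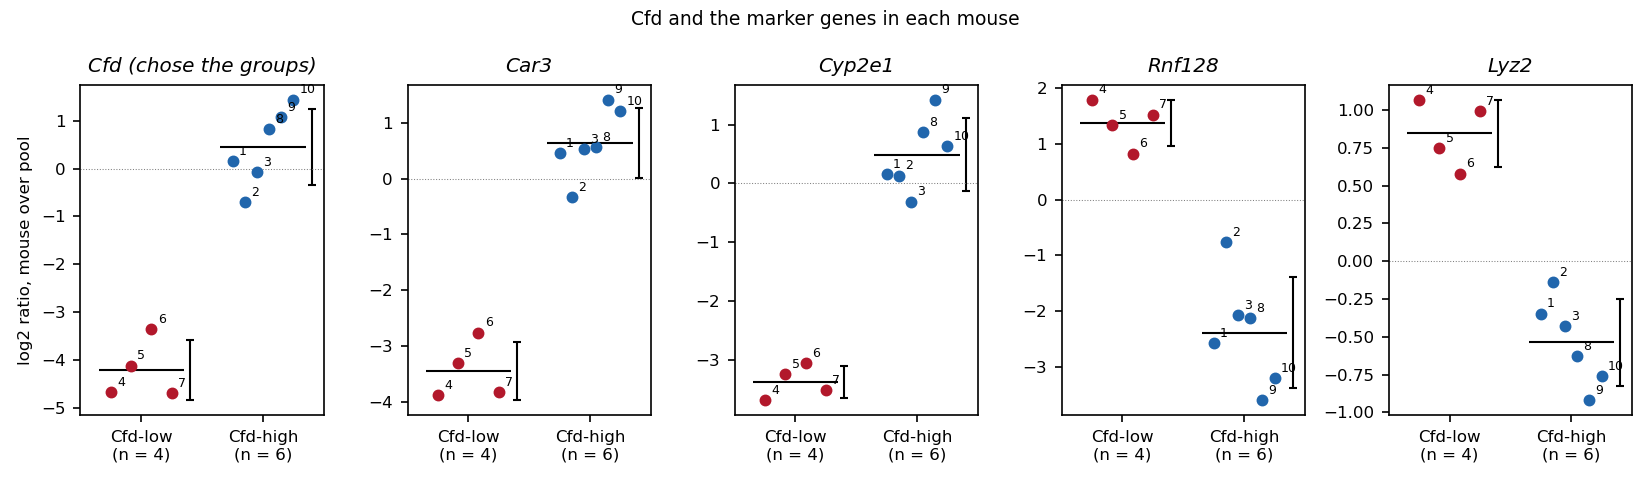
*Cfd* and the 4 marker genes in each mouse, as the log2 ratio of mouse over pool (y axis) by group (x axis). Points are mice with their number, the line is the group mean and the bar is the SD. *Car3* and *Cyp2e1* lie below -2.7 in all 4 Cfd-low mice and above -0.4 in all 6 Cfd-high mice, and *Rnf128* and *Lyz2* lie the other way round.

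A gene was called where its values in the 2 groups did not overlap and the means differed by at least 1.5-fold. Of 20712 genes above the filter, 1487 (7.18%) were higher and 2331 (11.3%) lower in the Cfd-low mice. These shares are the background against which the counts of members below are to be read. Over 28526 single probes the shares were 6.69% higher and 9.97% lower, and 40.7% of genes did not overlap at any size of difference. In the Cy3 channel, which holds the same pool on every array, 25 genes (0.121%) met the same rule in either direction. At any size of difference 971 genes did not overlap in Cy3, beside 8438 in the ratio. The largest Cy3 difference was 1.44. The median size of the difference over genes was 0.23 in the ratio and 0.05 in Cy3, beside a median SD of 0.11 within the Cfd-low and 0.14 within the Cfd-high group.

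The median difference over all genes was -0.02, with 80% of genes between -0.67 and 0.47. Of the calls, 662 higher and 937 lower genes differed by at least 2-fold. Among all calls 38.9% were in the higher direction, but this split moved with the scaling of the arrays. It was 70.3% (2323 higher, 981 lower) where each array was only centred on its median, and 49.9% (2240 higher, 2250 lower) in the deposited values. Those scalings set the median of all genes at 0.06 and 0.04. Directions of gene lists below held under all scalings unless stated, while counts of called members were often lower under median centring. The 68 genes with a missing value in any mouse were not callable, and 16 of them would otherwise have met the rule.

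**Figure D2:**
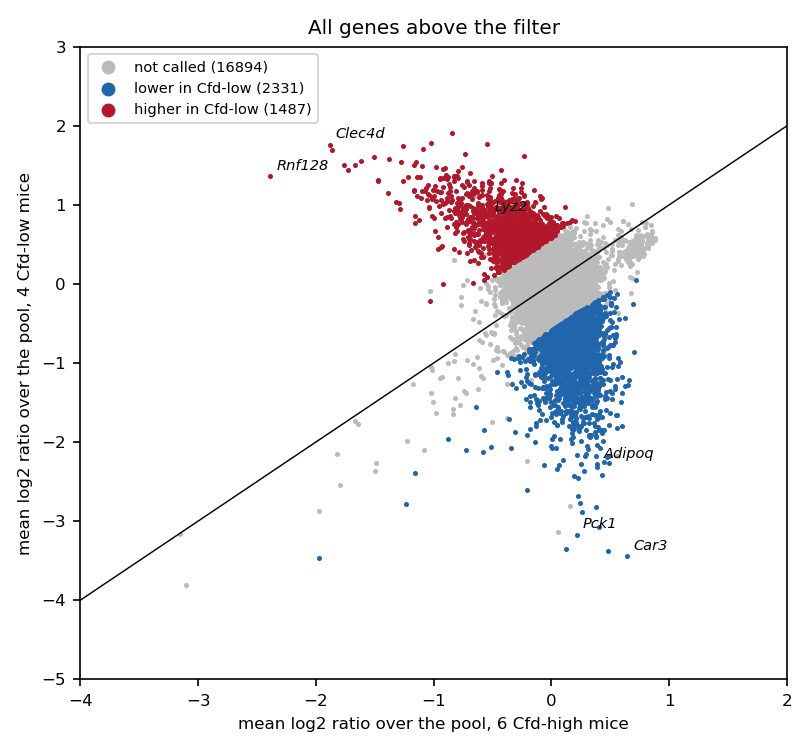
Mean log2 ratio over the pool in the 4 Cfd-low mice (y axis) against the 6 Cfd-high mice (x axis), with 1 point per gene and the line of equality. Red genes (1487) were called higher and blue genes (2331) lower in the Cfd-low mice, and grey genes were not called.

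The 15 genes with the largest deficit in the Cfd-low mice among those above background on all 10 arrays were led by genes of the fat cell. After *Car3* and *Cyp2e1* came *Adrb3*, the beta-3 adrenergic receptor through which catecholamines start lipolysis. It was -3.64, -3.29, -2.89 and -3.60 in mice 4 to 7, against -1.56 through 0.24 to 1.05 (difference -3.48, 11.1-fold). *Timp4*, an inhibitor of matrix metalloproteinases that adipocytes express, was -3.21, -3.09, -2.61 and -3.38, against -0.14 through 0.40 to 0.99 (difference -3.48). *Pck1*, the phosphoenolpyruvate carboxykinase that supplies glycerol for triglyceride in fat, was -3.05, -3.56, -2.57 and -3.50, against -0.94 through 0.15 to 1.22 (difference -3.39). The remaining 10 were *Ces1d*, *Rbp4*, *Amy1*, *Plin4*, *Slc2a4*, *Chst1*, *Adipoq*, *Atp6v0e2*, *Art3* and *Scd1*, with differences from -3.20 to -2.62. Mouse 6 had the smallest deficit of the 4 Cfd-low mice in each of these 15 genes.

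The 15 genes with the largest excess were *Rnf128*, *Clec4d*, *Gpnmb*, *Zranb3*, *Vsig8*, *Akr1b8*, *Cpa3*, *Glipr1*, *Mmp12*, *Htr2b*, *Atp6v0d2*, *Cd5l*, *Gp49a*, *Mamdc2* and *Efr3b*. Their differences ran from 3.76 down to 2.58. *Clec4d*, a C-type lectin of myeloid cells, was 2.44, 1.73, 1.04 and 1.86 in mice 4 to 7, against -3.09 through -1.64 to -1.23 (difference 3.65, 12.5-fold). *Gpnmb*, a glycoprotein of lipid-laden macrophages, was 1.87, 1.62, 1.42 and 1.86, against -2.87 through -1.79 to -0.76 (difference 3.56, 11.8-fold). *Cd5l*, a secreted protein of macrophages, had the largest SD within the Cfd-low mice of the genes named, at 3.03, 1.31, 0.90 and 2.40, and differed by 2.75.

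**Figure D3:**
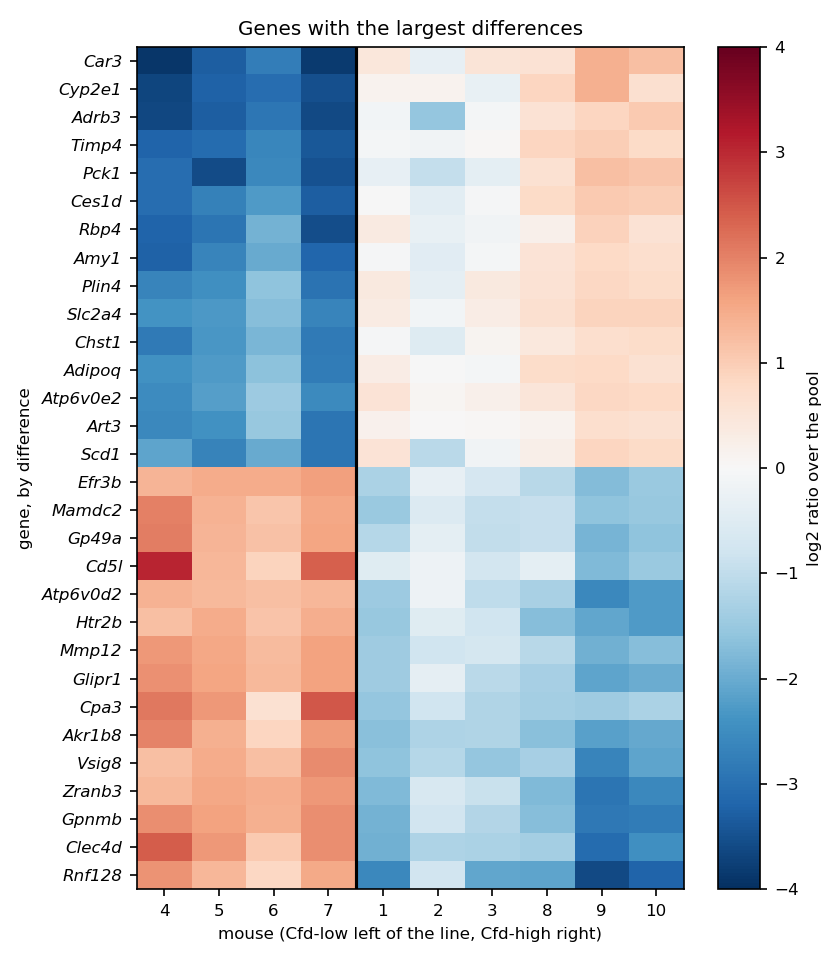
Log2 ratio over the pool (colour) of the 15 genes with the largest deficit and the 15 with the largest excess in the Cfd-low mice (rows), in each mouse (columns). *Car3* has the largest deficit (-4.09) and *Rnf128* the largest excess (3.76), and mouse 2 is the palest of the Cfd-high columns for many of the genes.

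Genes that define the adipocyte were lower in the Cfd-low mice almost without exception. Of 30 adipocyte identity genes, all above the filter, 26 were called lower and none higher, with a median difference of -1.95. *Adipoq*, which encodes adiponectin, was -2.43, -2.27, -1.63 and -2.78 in mice 4 to 7, against -0.08 through 0.45 to 0.81 (difference -2.67, 6.37-fold). *Lep*, leptin, was -2.16, -1.77, -0.92 and -2.27, against -0.06 through 0.18 to 0.46 (difference -1.97). *Plin1*, the perilipin that guards the droplet, differed by -2.06, *Fabp4*, the fatty acid carrier of fat cells, by -2.06, and *Pparg*, the master transcription factor of the adipocyte, by -1.10. The groups did not overlap in any of these 5 genes, and *Pparg* differed least.

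The 4 identity genes that were not called were *Retn*, *Adipor2*, *Lpl* and *Cd36*, named here because they are the exceptions. *Retn*, resistin, was -2.87, -2.87, -2.29 and -3.21, against -0.75 to 0.92 in the 5 Cfd-high mice with a value (mouse 9 was dropped as an outlier spot), a difference of -2.96. *Adipor2* lacked a value in a mouse as well, with a difference of -1.44. *Lpl*, lipoprotein lipase, differed by only -0.26 and *Cd36*, the fatty acid translocase, by 0.38 in the other direction. *Cd36* was 0.03 to 0.15 in the Cfd-low and -0.35 to -0.15 in the Cfd-high mice, so its groups did not overlap but it stayed under 1.5-fold. Both genes are also expressed by macrophages. Under median centring 15 of the 30 genes were called lower and 1 higher, and in the deposited values 26 and 1.

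The list of adipocyte expansion genes, which are known to vary together with *Mest* between mice on a high fat diet, held 12 genes. Of these 11 were lower and 1 higher, with a median of -1.53. *Sfrp5* (-2.40) and *Plagl1* (-2.38) were the lowest, and *Mest* was -2.33, -1.89, -1.0 and -2.41 in mice 4 to 7, against -0.57 through -0.22 to 0.13 (difference -1.70). The gene that was higher was *Igf1*, insulin-like growth factor 1, by 0.62.

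Genes of lipid handling followed. Of 17 genes of de novo lipogenesis 12 were lower and none higher (median -0.91), led by *Scd1*, stearoyl-CoA desaturase, at -2.62, *Thrsp*, a regulator of lipogenesis, at -2.43, and *Mlxipl*, which encodes the glucose-sensing factor ChREBP, at -1.72. *Fasn*, fatty acid synthase, was -0.90, -0.79, -0.09 and -1.26 in mice 4 to 7 and -0.23 to 0.70 in the others, and its groups overlapped at mouse 6. *Acly*, ATP citrate lyase, differed by -0.32 and was not called. Of 16 genes of fatty acid uptake and triglyceride synthesis 13 were lower and none higher (median -1.15), with *Dgat2*, which makes the last bond of triglyceride, at -2.21.

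Of 18 genes of lipolysis and the lipid droplet 14 were lower and 1 higher (median -1.65). *Lipe*, hormone-sensitive lipase, differed by -1.80 and *Pnpla2*, adipose triglyceride lipase, by -1.42. The exception was *Plin2*, the perilipin of the small droplets of many cell types, at 0.79, 0.96, 0.83 and 1.02 in mice 4 to 7 against -1.06 through -0.54 to -0.13 (difference 1.47). The perilipins thus went opposite ways, with *Plin1* and *Plin4* lower and *Plin2* higher in the Cfd-low mice.

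Mitochondrial lists were lower by less. Of 26 genes of fatty acid oxidation 14 were lower and 1 higher (median -0.64). *Hadh* (-1.48) and *Eci1* (-1.32) were among the lowest, and *Cpt1a*, the isoform of the mitochondrial gate enzyme that liver and immune cells use, was higher by 0.59. Of 19 genes of the tricarboxylic acid cycle and pyruvate handling 6 were lower and none higher (median -0.55), with *Pcx*, pyruvate carboxylase, at -1.61. Of 44 genes of the respiratory chain 8 were lower and none higher (median -0.35), led by *Cox8b* at -1.17. That share of lower genes in the respiratory chain is the nearest of these lists to the background of 11.3%. In the deposited values 8, 2 and 2 genes of these 3 lists were called lower, and under median centring 1, 0 and 1. Over all genes the lower calls numbered 2250 in the deposited values and 981 under median centring, against 2331 (11.3%) in the main setting. Under these 2 scalings only fatty acid oxidation in the deposited values stood clear of all genes by count.

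Breakdown of branched-chain amino acids was lower more evenly. Of 22 genes 19 were lower and none higher (median -1.02, from -2.12 to -0.25). Under median centring only 1 gene was called, where 981 of all genes were called lower, so that count does not stand out. *Aldh6a1*, which acts at the end of valine breakdown, was -2.10, -2.20, -1.50 and -2.50 in mice 4 to 7, against -0.66 through 0.06 to 0.51. *Bcat2*, which takes off the amino group, differed by -0.74 and *Bckdha*, a subunit of the dehydrogenase that commits the chain to breakdown, by -0.98.

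Of 18 genes of insulin signalling and glucose uptake 14 were lower and 1 higher (median -1.03). *Slc2a4*, which encodes the insulin-regulated transporter GLUT4, was -2.38, -2.31, -1.71 and -2.65 in mice 4 to 7, against -0.11 through 0.49 to 0.91 (difference -2.75, 6.75-fold). *Slc2a1*, which encodes the widely expressed transporter GLUT1, was 1.45, 1.22, 0.91 and 1.20, against -0.47 through -0.22 to 0.48 (difference 1.34, 2.53-fold). The 2 glucose transporters thus went opposite ways without overlap. *Insr*, the insulin receptor, differed by -0.80 and *Irs1*, its first substrate, by -1.03. Of 29 cytochrome P450, esterase and glutathione transferase genes 13 were lower and 2 higher (median -0.91). The 2 higher ones were *Cyp1b1* (0.95) and *Cyp51* of cholesterol synthesis (0.78).

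Macrophage genes were higher in the Cfd-low mice. Of 26 pan-macrophage genes 21 were higher and none lower, with a median difference of 1.38. *Emr1*, which encodes F4/80, was 1.33, 1.51, 1.23 and 1.55 in mice 4 to 7, against -1.52 through -0.62 to 0.05 (difference 2.10, 4.29-fold). *Cd68*, a protein of macrophage lysosomes, differed by 1.52 and *Csf1r*, the receptor that macrophages need to survive, by 0.76. *Cd84* (2.18) and *Lgals3* (2.10) differed most. *Itgam* (0.22), *Aif1* (0.03) and *Fcgr2b* (-0.22) were not called.

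Genes of lipid-associated macrophages differed more than the pan-macrophage list. Of 22 genes 17 were higher and none lower (median 1.96). *Trem2*, the lipid receptor that defines these cells, was 1.52, 1.28, 1.10 and 1.49 in mice 4 to 7, against -2.43 through -1.03 to 0.10 (difference 2.49, 5.62-fold). *Itgax*, which encodes CD11c, was 0.98, 1.09, 0.82 and 1.19, against -1.50 through -0.95 to -0.26 (difference 1.93). *Spp1*, osteopontin, differed by 2.56, *Cd9* by 2.10 and *Mmp12*, the macrophage elastase, by 2.81. The 4 Cfd-low mice lay close together in the mean of this list (0.69 to 0.90), and the 6 Cfd-high mice were spread from -1.29 to -0.25. The 5 genes that were not called were *Acp5* (-0.55), *Apoe* (-0.36), *Lpl* (-0.26), *Anxa5* (0.04) and *Cd36* (0.38).

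Genes of the lysosome were higher as well. Of 43 genes for lysosomal hydrolases, membrane proteins and the proton pump 33 were higher and none lower (median 0.89), and 3 of the 43 are also on the list of lipid-associated macrophages. *Atp6v0d2*, a pump subunit of macrophages and osteoclasts, was 1.40, 1.29, 1.22 and 1.33, against -2.57 through -1.38 to -0.21 (difference 2.78, 6.87-fold). The cathepsins *Ctsk* (2.28), *Ctss* (1.86), *Ctsl* (1.74) and *Ctsd* (1.47) were higher, as were the transcription factors that drive lysosomal genes, *Mitf* (1.46), *Tfeb* (0.85) and *Tfe3* (0.61). *Atp6v0e2*, another pump subunit, was among the 15 lowest genes at -2.67, so that the subunits of the pump did not all go 1 way.

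Macrophages of the resident type went against the other macrophage lists. Of 19 genes 9 were lower and 2 higher (median -0.96), and the mean of the list was -0.73 to -0.46 in the Cfd-low against -0.20 to 0.34 in the Cfd-high mice. *Cd209d*, a lectin, was -1.80, -1.44, -1.55 and -1.96 in mice 4 to 7, against -0.54 through 0.47 to 0.83 (difference -1.97). *Cd209f* differed by -1.85, *F13a1*, coagulation factor XIII of macrophages, by -1.69, and *Lyve1*, a hyaluronan receptor that lymphatic endothelium also has, by -1.36. *Retnla*, which alternatively activated macrophages secrete, was -3.54, -3.07, -2.70 and -3.23 against -1.53 to 1.08, but mouse 10 had no value and so it was not callable. *Cd163* (-0.50) and *Mrc1* (0.56) were not called either, since they stayed under 1.5-fold, although their groups did not overlap. *Cd163* was above background in 1 of the 4 Cfd-low and all 6 Cfd-high mice, so its deficit may be understated. The 2 higher genes were the folate receptor *Folr2* (1.10) and the scavenger receptor *Stab1* (0.69).

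**Figure D4:**
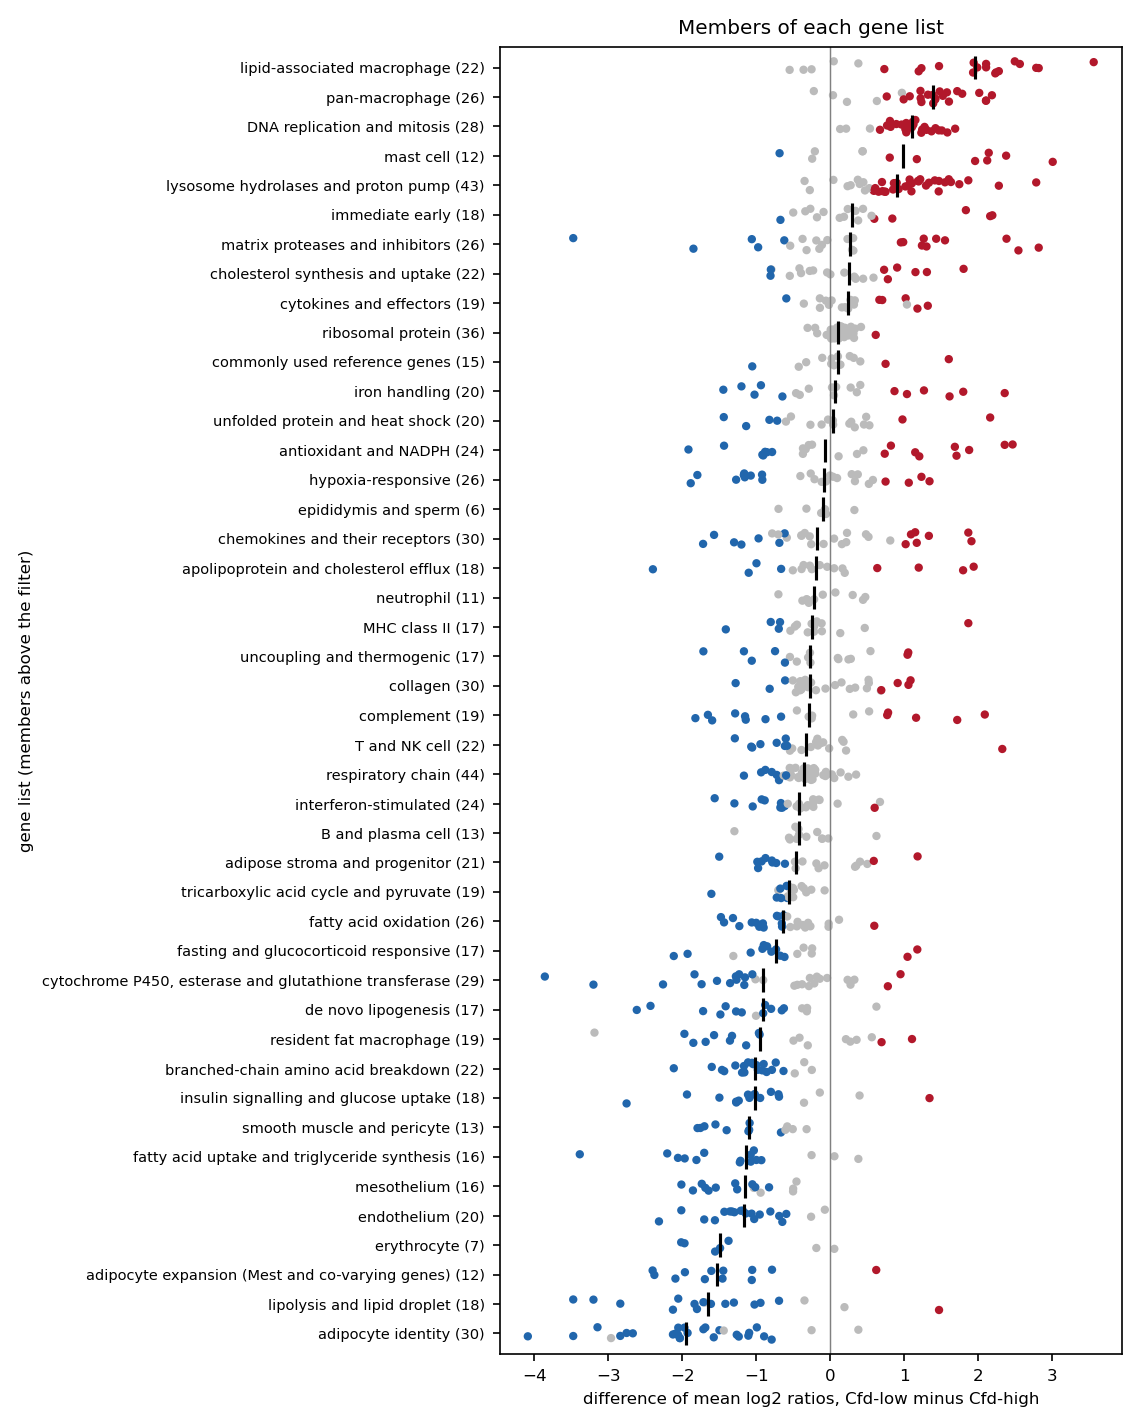
Difference of mean log2 ratios, Cfd-low minus Cfd-high (x axis), for each member above the filter of the 44 gene lists (y axis, with the number of members), ordered by the median (black bar). Red members were called higher, blue ones lower and grey ones not called, and the lists run from adipocyte identity (-1.95) to lipid-associated macrophages (1.96).

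Mast cell genes were higher in the Cfd-low mice and were uneven among them. Of 12 genes 7 were higher and 1 lower (median 0.98). *Mrgprb2*, a receptor of mast cells and 1 of the 7, was above background in the 4 Cfd-low mice and in no Cfd-high mouse, so it passed the filter only through the group where it was higher. Of the 9 genes above background in all 10 mice 5 were higher and 1 lower. *Cpa3*, carboxypeptidase A3 of mast cell granules, was 2.12, 1.74, 0.62 and 2.49 in mice 4 to 7, against -1.54 through -1.31 to -0.78 (difference 3.00, 8.02-fold). The chymases *Cma1* and *Mcpt4* followed it, with 2.01, 1.63, 0.58 and 2.35, and 1.37, 1.46, 0.42 and 1.96. Mouse 6 was the lowest of the 4 in all 3 genes, and still above every Cfd-high mouse. *Kit*, the receptor of stem cell factor, differed by -0.25 without a call, and *Gata2*, which endothelium and progenitors also express, was called lower (-0.69).

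Genes of T and NK cells were called mostly lower. Of 22 T and NK cell genes 8 were lower and 1 higher (median -0.33). The size of this median depended on the scaling, at -0.35 under median centring, -0.53 in the deposited values and -1.08 in the scanner log ratio. *Gzma*, granzyme A, was lower at -1.29, *Cd2* at -1.07 and *Cd3d* at -1.06, while *Cd3e* (-0.18) and *Cd4* (-0.02) were not called. The gene that was higher was *Il7r*, the interleukin-7 receptor, at 0.95, 1.10, 1.05 and 1.01, against -2.18 through -1.22 to -0.32 (difference 2.32). No gene was called among 13 of B and plasma cells, where *Igj* had the largest difference (-1.30), nor among 11 of neutrophils, where *S100a9* had it (-0.70, but -0.13 without mouse 8). Of 17 genes of MHC class II presentation 4 were lower and 1 higher (median -0.25). *Cd209a* of dendritic cells was lower at -1.41, *H2-Eb1* at -0.81, and the protease *Ctss* was higher.

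Chemokines divided. Of 30 chemokine and receptor genes 7 were higher and 7 lower, with a median of -0.18 that turned positive under median centring (0.02). *Cxcl14* (1.91) and *Ccl3* (1.86) were the highest, and the interferon-induced T cell attractant *Cxcl9* (-1.72), *Ccl24* (-1.57) and the monocyte receptor *Ccr2* (-1.30) were lower. *Ccl2*, the main ligand of *Ccr2*, differed by 0.22 without a call. Of 19 cytokine and effector genes 5 were higher and 1 lower (median 0.24). *Il1rn*, the interleukin-1 receptor antagonist, differed by 1.32, *Casp1* by 1.18, *Tgfb1* by 1.02 and *Tnf* by 0.70, while *Nos2* was lower (-0.60) and *Il6* differed by 0.32 without a call. Of 24 interferon-stimulated genes 9 were lower and 1 higher (median -0.42), with *Gbp2* (-1.56), *Gbp3* (-1.30) and *Igtp* (-1.05) lowest and *Ifi204* higher (0.60).

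Complement genes went both ways. Of 19 genes 8 were lower and 5 higher (median -0.29). The genes that were higher were those of C1q, *C1qa* (0.78), *C1qb* (1.16) and *C1qc* (0.77), which macrophages make, and the receptors for the cleavage products, *C3ar1* (1.71) and *C5ar1* (2.09). *C4b* (-1.82), *C2* (-1.66), the protective membrane protein *Cd59a* (-1.60) and *C3* (-1.14) were lower. *Cfd*, the part of this system that chose the groups, is not on the list.

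Genes of DNA replication and mitosis were higher together. Of 28 genes 25 were higher, none lower, and all 28 differences were above 0 (median 1.11). *Birc5*, survivin, was 0.53, 0.86, 1.21 and 0.75 in mice 4 to 7, against -1.71 through -0.85 to -0.28 (difference 1.69). *Pcna*, the sliding clamp of replication, differed by 1.58, *Ccnb1* by 1.51 and *Mki67*, the proliferation marker Ki-67, by 1.46. Here mouse 6, the nearest of the 4 to the Cfd-high mice in adipocyte genes, had the highest mean of the list (0.84, against 0.43 to 0.65 in mice 4, 5 and 7).

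**Figure D5:**
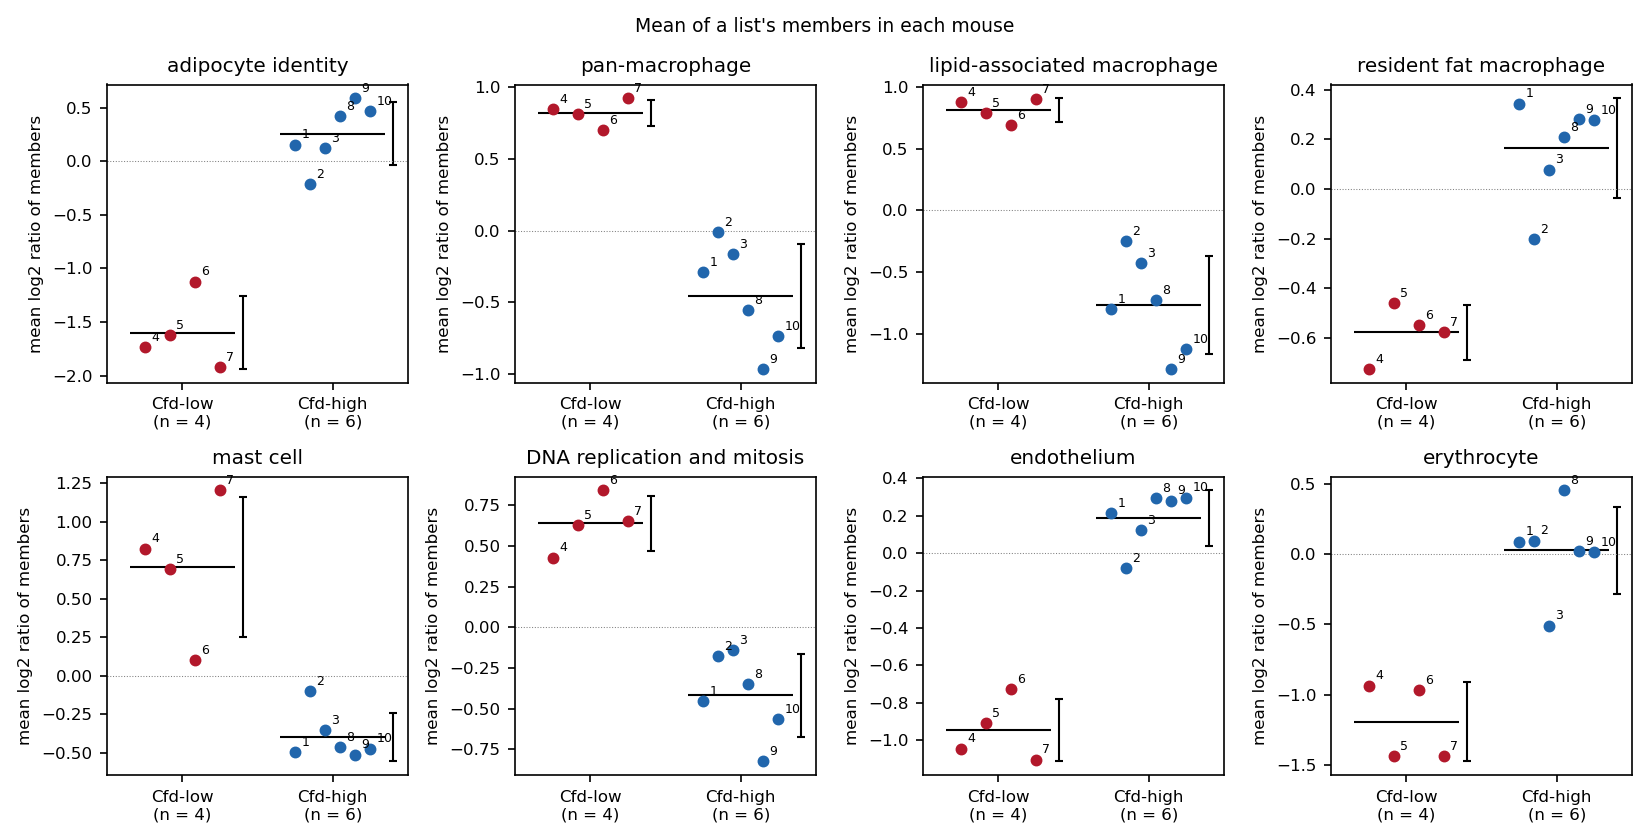
Mean log2 ratio of the members of 8 gene lists (y axis) in each mouse, by group (x axis). Points are mice with their number, the line is the group mean and the bar the SD. The groups do not overlap in any of the 8 means, and mouse 6 lies nearest to the Cfd-high mice in adipocyte identity but farthest from them in DNA replication and mitosis.

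Genes of blood vessels were lower in the Cfd-low mice. Of 20 endothelial genes 18 were lower and none higher (median -1.16). *1190002H23Rik* (-2.32), the tight junction gene *Cldn5* (-2.01) and *Gpihbp1* (-1.71), which carries lipoprotein lipase to the capillary surface, were lowest. *Cdh5*, VE-cadherin, was -1.38, -0.90, -0.60 and -1.26 in mice 4 to 7, against -0.07 through 0.51 to 0.55. *Pecam1* was lower by less (-0.60) and *Kdr*, the main VEGF receptor, hardly differed (-0.08). Of 13 genes of smooth muscle and pericytes 9 were lower and none higher (median -1.10), with *Rgs5* (-1.80), *Acta2* (-1.76) and *Myh11* (-1.70) lowest. Of 7 erythrocyte genes 5 were lower and none higher (median -1.49). They were 4 globin genes, which share sequence and cannot be fully told apart by hybridisation, and *Alas2*, the first enzyme of haem synthesis in red cells (-1.38).

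*Hba-a1* was -1.55, -2.30, -1.59 and -2.42 in mice 4 to 7, against -0.89 through 0.05 to 0.71, with mouse 3 the lowest of the Cfd-high mice. Of 16 genes of mesothelium, the layer that covers the fat pad, 11 were lower and none higher (median -1.16). *Msln*, mesothelin, differed by -1.65 and *Krt19* by -1.55. Mouse 2 was high in the keratins *Krt8* (1.91), *Krt18* (1.85) and *Krt19* (0.65). It was the lowest of the Cfd-high mice in *Msln* (-0.96), *Upk3b* (-0.98) and *Muc16* (-1.11). The mean of the list was -0.21 in mouse 2, within the -0.41 to 0.37 of the Cfd-high mice. Of 21 genes of adipose stroma and progenitors 9 were lower and 2 higher (median -0.47). *Zfp423*, which marks cells bound for the fat lineage, was lower at -1.50 and *Dpp4* at -0.99, whereas *Lum* (1.18) and *Cd248* (0.59) were higher and *Pdgfra* (0.33), *Dcn* (-0.38) and *Pi16* (-0.48) were not called.

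The matrix showed no common direction. Of 30 collagen genes 4 were higher and 3 lower (median -0.28), with *Col8a1* (1.08) and *Col1a1* (1.05) higher and *Sparc* (-1.28) lowest. In the deposited values 8 of the 30 were higher, beside 2240 higher calls over all genes. Of 26 matrix proteases and their inhibitors 10 were higher and 5 lower (median 0.26). After *Mmp12*, the highest were *Adam8* (2.54) and *Mmp3* (2.38), and the 5 lower genes were *Timp4*, *Timp3* (-1.85), *Adamts9* (-1.06), *Adamts5* (-0.98) and *Mmp15* (-0.62).

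Iron and hypoxia genes are of interest because DFO binds iron and because the enzymes that mark HIF proteins for breakdown need it. All 10 mice received DFO, so no value here measures its effect. Of 20 genes of iron handling 6 were higher and 5 lower (median 0.06). *Hmox1*, which breaks haem down, was 1.47, 0.80, 0.72 and 1.15 in mice 4 to 7, against -1.74 through -1.28 to -0.93 (difference 2.35, 5.11-fold). *Slc40a1*, the iron exporter ferroportin, was 2.06, 0.80, 0.37 and 1.42, against -0.94 through -0.69 to -0.19 (difference 1.79). *Slc11a1*, an iron transporter of the phagosome, differed by 1.61, and the ferritin chains *Ftl1* and *Fth1* by 1.26 and 1.03. The 5 lower genes were *Hp*, haptoglobin (-1.45), *Steap4* (-1.20), *Cp*, ceruloplasmin (-1.03), *Trf*, transferrin (-0.94), and *Hfe* (-0.65), and *Tfrc*, the transferrin receptor, was not called (0.40).

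Hypoxia-responsive genes were split within the list. Of 26 genes 4 were higher and 9 lower, and the median of -0.09 turned positive under median centring (0.07) and in the deposited values (0.04). *Pfkfb3* (-1.89), *Bnip3* (-1.80), *Hk2* (-1.27), *Vegfa* (-1.17) and *Epas1*, which encodes HIF-2 alpha (-1.16), were lower. *Slc2a1* (1.34), *Pfkfb4* (1.23), *Car9* (1.06) and *Pgk1* (0.74) were higher, and *Hif1a* differed by -0.12 without a call. The array annotation places the *Pgk1* probe on chromosome 3, and no other *Pgk1* probe passed the filter. Whether that probe measures *Pgk1* itself was not tested. The isoforms *Pfkfb3* and *Pfkfb4*, which make the same activator of glycolysis, went opposite ways.

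Antioxidant genes divided too. Of 24 genes 9 were higher and 7 lower, with a median of -0.07 that turned positive under median centring (0.13) and in the deposited values (0.07). *Prdx1*, a peroxiredoxin, was 2.21, 1.19, 1.05 and 1.49 in mice 4 to 7, against -1.23 through -1.06 to -0.56 (difference 2.46, 5.51-fold). *Srxn1* (1.87), *Txnrd1* (1.70), *Gclm* (1.68) and *Nqo1* (0.82) were higher as well. *Akr1b8*, an aldo-keto reductase among the 15 highest genes, was 1.99, 1.43, 0.87 and 1.72, against -2.17 through -1.68 to -1.22. Mouse 4 was the highest of the Cfd-low mice in *Prdx1*, *Srxn1*, *Txnrd1*, *Gclm*, *Nqo1*, *Akr1b8* and *Hmox1*. Among the lower genes were *Sod3* (-1.92), *Prdx6* (-0.92), *Me1* (-0.91), *Gpx4* (-0.88), *Gpx3* (-0.86) and *Sod2* (-0.79).

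Cholesterol genes were mixed. Of 22 genes of cholesterol synthesis and uptake 6 were higher and 2 lower (median 0.25), with *Srebf2*, the transcription factor of the pathway (1.80), *Sqle* (1.30) and *Sc4mol* (1.15) highest and *Sc5d* and *Pmvk* lower (both -0.81). Of 18 genes of apolipoproteins and cholesterol efflux 4 were higher and 4 lower (median -0.20, 0.03 under median centring). *Apoc1* (-2.40) was lowest, and *Lipa*, the acid lipase of the lysosome (1.94), and *Soat1*, which esterifies cholesterol (1.79), were highest.

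Of 20 genes of the unfolded protein and heat shock response 2 were higher (*Atf3*, 2.16, and *Sdf2l1*, 0.97) and 4 lower, among them *Cryab* (-1.44) and *Hspb1* (-1.14), with a median of 0.03. Of 18 immediate early genes 5 were higher and 1 lower (median 0.29), with *Egr2* (2.19) and *Fos* (1.83) high and *Btg2* (-0.68) low. Of 17 genes that fasting or glucocorticoids induce 10 were lower and 2 higher (median -0.73). *Zbtb16* (-2.12) and *Klf15* (-1.93) were lowest, and *Sgk1* (1.17) and *Ucp2* (1.04) were the higher ones. Of 17 genes of uncoupling and thermogenesis 5 were lower and 2 higher (median -0.28). *Cidea* (-1.72), *Cox8b* and *Kcnk3* (-1.06) were lowest, and *Ucp3* was the gene with a probe in disagreement, since it was higher by 1.05 while its other probe had the opposite sign.

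Of 36 ribosomal protein genes 1 was called, *Rps27a*, higher by 0.61 (median of the list 0.11, 0.47 under median centring). Of 15 commonly used reference genes 2 were higher, *Gusb* (1.60, itself a lysosomal enzyme) and *Pgk1* (by the probe placed on chromosome 3), and 1 was lower, *B2m* (-1.06). *Gapdh* (0.10), *Actb* (0.31), *Tbp* (0.02) and *Ppia* (0.05) were not called.

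Within each group 1 mouse was most often the nearest to the other group. Among the 2331 lower genes mouse 6 was the Cfd-low mouse nearest to the Cfd-high mice in 73.0%, and among the 1487 higher genes in 51.9%. Mouse 2 was the nearest Cfd-high mouse in 46.0% of the lower and 58.4% of the higher genes. Mice 9 and 10, with the highest *Cfd*, were rarely the nearest, in 3.22% and 3.90% of the lower and 0.74% and 1.41% of the higher genes. In adipocyte identity the list mean was -1.74, -1.62, -1.12 and -1.92 in mice 4 to 7, and 0.16, -0.21, 0.12, 0.42, 0.59 and 0.47 in mice 1, 2, 3, 8, 9 and 10. In the pan-macrophage list it was 0.84, 0.81, 0.70 and 0.92, and -0.29, -0.01, -0.16, -0.56, -0.97 and -0.74.

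Sequence before the start of the genes was searched for 4 motifs on both strands, chosen after the values had been seen. The promoters are those of RefSeq (build GRCm38.p6), 250 bases before the start, 1 per gene. The E-box CACGTG stood before 5 of the 23 higher lysosomal genes with a promoter in the table (21.7%), against 6.04% of all 27025 promoters. The antioxidant response core TGACNNNGC stood before 2 of 6 higher antioxidant genes (33.3%, against 10.1%). TTGCNNAA, a form that C/EBP proteins bind, stood before 2 of 17 lower adipocyte identity genes (11.8%, against 9.55%), and TTTCCCGC, a form that E2F proteins bind, before none of 24 higher replication genes (against 0.929%). With so rare a motif, 24 promoters are too few for the lack of a match to say anything. The choice of 1 start per gene, the 5′-most, was made after a first run over all starts in the table. Over all starts the share was 21.2% for CACGTG (against 6.02% of all 32851 starts), 37.5% for TGACNNNGC (against 10.2%) and 20.8% for TTGCNNAA (against 9.56%), and TTTCCCGC had no match. The share for TTGCNNAA thus depended on which starts were searched. A match is only a match of letters. Members of the same lists that were not called were not counted apart, so no share can be tied to the difference between the groups. The promoters of 1 antioxidant and 1 adipocyte gene are shown with the motif in capitals. Each gene has the largest difference among those called members of its list that had a match. *Plin1* (-2.06) is thus not the adipocyte gene with the largest difference, which was *Car3* (-4.09). The *Prdx1* stretch is at chr4:116685349-116685598 (+) and its match begins 133 bases before the start. The *Plin1* stretch is at chr7:79732777-79733026 (-) and holds 2 matches, the first of them 187 bases before the start.
*Prdx1*: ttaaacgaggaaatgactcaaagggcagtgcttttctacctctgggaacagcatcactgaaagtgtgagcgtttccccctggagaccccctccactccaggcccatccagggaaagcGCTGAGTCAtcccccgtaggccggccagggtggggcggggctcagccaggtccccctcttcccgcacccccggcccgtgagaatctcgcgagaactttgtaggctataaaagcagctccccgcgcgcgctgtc
*Plin1*: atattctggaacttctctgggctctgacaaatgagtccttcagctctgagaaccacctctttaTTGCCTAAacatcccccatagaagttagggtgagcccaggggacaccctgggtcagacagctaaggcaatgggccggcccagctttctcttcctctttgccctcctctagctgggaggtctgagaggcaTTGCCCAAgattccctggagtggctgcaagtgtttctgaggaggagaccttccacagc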

How the data were processed

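Labelled RNA of eWAT from 10 mice was measured on 2-colour arrays (Agilent Feature Extraction 10.7.3.1 per the labels). The authors deposited scanner files with intensity values per spot and dye, and a log10 ratio of Cy5 over Cy3 that the software had background-subtracted and dye-normalized. The deposited table of 30733 spots holds log2 values, as its range shows. Its columns share a median of 8.52 and follow log2 Cy5 of their arrays (r of 0.996 to 0.998 over probes), so it holds Cy5 alone, and it served as an alternative. How the authors normalized it is not given in the sources used here. Other deposited columns were flags of the software. The dyes were not swapped, so dye bias of a probe stays in its ratio but cancels in a difference between groups.

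From the intensity values, normexp (offset 50) and loess were run with limma 3.58.1 in R 4.3.3, control and outlier spots were left out, and 59305 spots were averaged to 55681 probes. A probe passed the filter with Cy5 well above background on at least 4 of 10 arrays (28527 probes), and a gene was its brightest probe. Median local background was 30 to 42 units of brightness, and the number of arrays limits the precision. Python 3.11.15 with scipy 1.17.1 did the rest. The smallest permutation p is 1 of 210 arrangements. The call rule and the permutation test were tested on simulated data.

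The 4 and 6 mice and the 44 lists (989 entries, of which 4 were not matched to the array, 5 matched by RefSeq synonym and a few by an older symbol) were chosen with earlier results of these data known. Lists share members. Genes named are the markers, the 15 largest per direction with an established symbol and signal on all arrays, up to 3 called members per list with the largest difference, members called against their list, the largest where none was called, and 10 defining genes of adipocytes and macrophages. A gene that this rule names is not reported here. Other members named, and the promoter motifs, were chosen after their values were seen. The filter can be passed through 1 group alone, and 30 of the 3818 called genes had no array above background in the group where they were lower. No mice without DFO were analysed here.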

Additional observations from a re-analysis of the deposited data

Results flagged for a closer look

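Of 442 groups of values (177 named genes and 44 list means in the 4 Cfd-low and the 6 Cfd-high mice), 14 (3.17%) held a mouse far from the rest of its group by Dixon's test. Chance alone gives that in about 1 of 20 groups of independent values. Most of the named genes were chosen because they were called, and many vary together, so the 2 shares cannot be compared. The value given in each case is the gap to the nearest mouse as a share of the group's range. On the Cfd-high side mouse 2 was the lowest in *Apoc1* (0.649), *Cd2* (0.646), *Cldn5* (0.636), *Gpihbp1* (0.722) and *Hspb1* (0.731). It was the highest in *Krt8* (0.661), *Myh11* (0.634), *Prm1* (0.641) and the mean of the smooth muscle and pericyte list (0.660). Mouse 8 was the highest in *S100a9* (0.784), and mouse 9 the lowest in the mean of the interferon-stimulated list (0.716).

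On the Cfd-low side mouse 4 was the lowest in *Cp* (0.851) and the highest in *Rps27a* (0.947), and mouse 6 the lowest in *Stab1* (0.932). In *Stab1* mouse 6 was at 0.38 and the other 3 at 0.70 to 0.72. In *Krt8* mouse 2 was at 1.91 and the other 5 Cfd-high mice at -1.32 to -0.23.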

How the results depend on the processing

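The number of genes called depended most on the rule itself. With a 2-fold in place of a 1.5-fold difference 662 genes were higher and 937 lower, and with no limit of size 3771 and 4667. Under median centring 2323 were higher and 981 lower, and 2387 of the 3818 calls were kept. The log ratio of the scanner software gave 2248 higher genes and the deposited values 2240, with 3727 and 3385 of the calls kept. The cause of these shifts was not tested. Counts without background correction (1596 and 2490), from Cy5 alone (1736 and 2306), with signal on all 10 arrays (1400 and 2225), from the mean of all probes (1404 and 2125) and without mice 2 and 8 (1694 and 2455) were within 1.5 times. Without the filter on dim probes 14084 more genes entered and none was called, since the largest difference among those that did not overlap was 0.51. A gene with signal in all mice of either group passes the filter already, so this setting could hardly add calls and says little about the filter. Leaving out 1 mouse at a time gave 1405 to 1652 higher and 2231 to 2568 lower genes. Within the 2 slides that held both groups 1161 genes were higher and 1875 lower by 1.5-fold on both slides. That rule does not ask for separation over all mice.

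None of the called genes among the 177 named changed sign under any setting. For list medians the sign depended on the setting in 4 of 44 lists, those of chemokines, apolipoproteins, hypoxia and antioxidants. The size of a list median could also depend on it, as in T and NK cells (-0.33 in the main setting and -1.08 in the scanner log ratio). Under median centring 44 counts of list members moved by more than 1.5 times and 44 did not, and in the deposited values 22 moved and 66 did not. The Cy3 count was 31 without normalization between arrays. Without mouse 8 the difference of *S100a9* was -0.13 in place of -0.70. Leaving out mice changed no call of the array measures. Of the other probes of called genes 1460 of 1552 (94.1%) had the same direction. By replicate number no paired analysis was possible because all mice belong to 1 labelled group and share no number. Mice that shared a slide could be compared within it, and those counts are given above.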
